A study of Mus musculus with 6 samples.

Results

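Oxidative phosphorylation genes were read out in 6 RNA-sequencing libraries of sorted bone marrow haematopoietic stem cells (HSCs), the rare cells of the marrow from which every blood lineage is renewed. The mutant group held 3 libraries from adult mice titled Ramp1 mutant, whose genotype label reads Ramp-/-, and the wild-type group held 3 libraries from adult Ramp1+/+ mice. Ramp1 encodes the accessory protein that completes the receptor for the neuropeptide CGRP. About 2000 sorted cells went into each library, and the labels state neither what the allele removes nor whether libraries came from different animals. The p-values therefore reflect only how far these libraries vary, which may be technical. The members are the protein-coding genes of the deposited count table whose symbols name a subunit of respiratory complexes I to IV, the ATP synthase (complex V) or somatic cytochrome c. They are 93 of its 18368 genes, of which 13 lie on the mitochondrial genome and 80 in the nucleus. By complex, 43 belong to complex I, 4 to complex II, 10 to complex III, 18 to complex IV and 17 to complex V, and Cycs encodes cytochrome c. Ndufa4 carries a complex I symbol, but its product is now placed in complex IV and it is counted there.

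The respiratory chain sits in the inner mitochondrial membrane. Complexes I and II pass electrons from NADH and succinate to ubiquinone, complex III passes them on to cytochrome c, and complex IV passes them to oxygen. Complexes I, III and IV pump protons, and the ATP synthase uses the gradient to make ATP. The mitochondrial genome encodes only a few core subunits, which are transcribed in the organelle, while all other subunits and the assembly factors come from nuclear genes, so each complex except II mixes products of both genomes. Quiescent HSCs are known for keeping respiration low and for drawing on it when they divide and differentiate.

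Libraries held between 22796771 and 26734561 counted reads. Ramp1 was at 3.53, 2.65 and 1.35 FPKM (fragments scaled by gene length and library size) in mutant libraries, against 91.4, 88.3 and 91.0 FPKM in wild-type libraries, and it passed the test across all genes (log2 fold change -5.17, SE 0.31; adjusted p = 0.00146 in edgeR's quasi-likelihood fit). The summed FPKM of 12 HSC markers ran from 1535 to 1930 over the 6 libraries and none of the 12 had a mean under 1 FPKM. The summed FPKM of 14 neutrophil genes was 255, 899 and 1190 in mutant replicates 1 to 3 and 94.2, 401 and 854 in wild-type replicates 1 to 3. Haemoglobin and other erythroid genes summed to 210, 59.2 and 79.9 FPKM in mutant libraries and to 86.7, 64.9 and 12.8 FPKM in wild-type libraries. The 5 multipotent progenitor markers summed to 42.4, 47.5 and 43.8 FPKM in mutant libraries and to 55.0, 64.8 and 63.9 FPKM in wild-type libraries, the 1 cell type list of 9 whose summed level did not overlap between genotypes; of its 4 genes tested 2 were higher and 0 were called, Dntt was under 1 FPKM, and its part in the results below was not tested. Y-linked genes drew 6219 reads in mutant replicate 1 and 6647 in wild-type replicate 1, and at most 101 in any other library. In such bulk samples, fewer cells of a type and less RNA per cell cannot be told apart.

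Sequences are shown first for the places where 2 mitochondrial reading frames share bases, because reads from the shared stretch cannot be given to one gene. The mouse mitochondrial genome overlaps mt-Atp8 with mt-Atp6 over 43 bases and mt-Nd4l with mt-Nd4 over 7 bases. Capitals mark the shared bases, in the GENCODE sequence of GRCm38, plus strand, at chrMT:7907-7989 for the first pair and chrMT:10147-10193 for the second.
mt-Atp8/mt-Atp6: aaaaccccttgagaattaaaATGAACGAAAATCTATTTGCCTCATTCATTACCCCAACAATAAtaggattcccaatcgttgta
mt-Nd4l/mt-Nd4: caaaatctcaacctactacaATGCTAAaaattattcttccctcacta
The shared stretch makes up 21.1% of the 204 bases of mt-Atp8 and 2.36% of the 297 bases of mt-Nd4l. Both of these short genes had few reads in every library, and the part of the overlap in this was not tested.

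The other sequences are the promoters of Ndufa3, Atp5l, Uqcrh and Atp5k, the nuclear members that had an unadjusted p under 0.05. Each is 300 bases from RefSeq (GRCm38.p6), ending 50 bases after the annotated start, and capitals mark motifs found by a search of both strands. Ndufa3 lies at chr7:3617123-3617422 on the plus strand, with AAGATGGC, the core of the YY1 site. Atp5l lies at chr9:44920693-44920992 on the minus strand, with a CCAAT box. Uqcrh lies at chr4:116075021-116075320 on the minus strand, with a CCAAT box and, in reverse, the ETS motif CCGGAAGT. Atp5k lies at chr5:108434350-108434649 on the minus strand, with the palindrome bound by nuclear respiratory factor 1 (NRF1).
Ndufa3: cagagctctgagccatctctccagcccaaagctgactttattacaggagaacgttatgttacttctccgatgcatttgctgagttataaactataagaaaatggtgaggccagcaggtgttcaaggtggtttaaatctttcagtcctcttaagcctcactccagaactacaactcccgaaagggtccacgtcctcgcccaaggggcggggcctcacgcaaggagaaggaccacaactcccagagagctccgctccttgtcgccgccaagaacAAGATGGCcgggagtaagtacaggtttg
Atp5l: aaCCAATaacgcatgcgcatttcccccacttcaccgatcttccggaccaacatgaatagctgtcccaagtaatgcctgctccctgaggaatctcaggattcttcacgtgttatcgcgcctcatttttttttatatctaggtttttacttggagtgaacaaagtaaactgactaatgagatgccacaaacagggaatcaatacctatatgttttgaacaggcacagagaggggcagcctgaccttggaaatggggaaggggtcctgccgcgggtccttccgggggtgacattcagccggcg
Uqcrh: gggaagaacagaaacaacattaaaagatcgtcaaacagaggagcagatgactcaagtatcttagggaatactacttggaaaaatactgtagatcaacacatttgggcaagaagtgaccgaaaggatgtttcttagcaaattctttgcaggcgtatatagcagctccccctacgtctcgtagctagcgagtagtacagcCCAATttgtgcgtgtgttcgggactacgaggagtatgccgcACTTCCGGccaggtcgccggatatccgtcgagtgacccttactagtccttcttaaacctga
Atp5k: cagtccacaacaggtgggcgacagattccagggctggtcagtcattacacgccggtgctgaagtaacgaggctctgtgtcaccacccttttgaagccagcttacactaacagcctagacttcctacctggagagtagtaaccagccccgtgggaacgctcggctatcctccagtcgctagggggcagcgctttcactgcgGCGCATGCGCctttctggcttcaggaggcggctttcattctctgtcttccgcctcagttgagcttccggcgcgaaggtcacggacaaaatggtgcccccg
RefSeq promoters were matched for 67 of the 80 nuclear members. The full NRF1 palindrome, as capitalized in Atp5k, was found in 5 of these 67 genes (7.46%), against 1.07% of 27025 genes. The same palindrome with any base allowed at the A, which includes the full one, was found in 17 (25.4%) against 5.19%. The YY1 core AAGATGGC was found in 10 (14.9%) against 3.19%. The ETS motif CCGGAAGT was found in 5 (7.46%) against 4.31% and CCAAT in 29 (43.3%) against 41.1%. These are matches of letters in a short window and not sites of measured binding.

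Most of these genes were abundant in HSCs of both genotypes. Over all libraries the median member reached 114 FPKM, against 9.18 FPKM for all 14443 genes tested. The mitochondrial transcripts mt-Cytb, mt-Co1 and mt-Nd1 were the highest, at 3232 ± 324 FPKM in mutant and 2919.7 ± 281 FPKM in wild-type libraries for mt-Cytb. Among nuclear members Atp5b, the catalytic beta subunit of the ATP synthase, led with 867 ± 80.0 FPKM in mutant and 933 ± 58.4 FPKM in wild-type libraries. Ndufa4 followed with 510.0 ± 53.1 FPKM in mutant and 458 ± 30.2 FPKM in wild-type libraries. At the low end of the members tested by FPKM, the complex I subunit gene Ndufb2 averaged 2.57 FPKM in mutant and 2.67 FPKM in wild-type libraries. It was chosen for mention after its values were seen. Its FPKM is divided by a gene length of 4371 bases. It drew 265, 266 and 300 reads in mutant and 272, 292 and 292 in wild-type libraries. By reads mt-Atp8, mt-Nd4l and Cox4i2 were lower in every library.

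**Figure D1:**
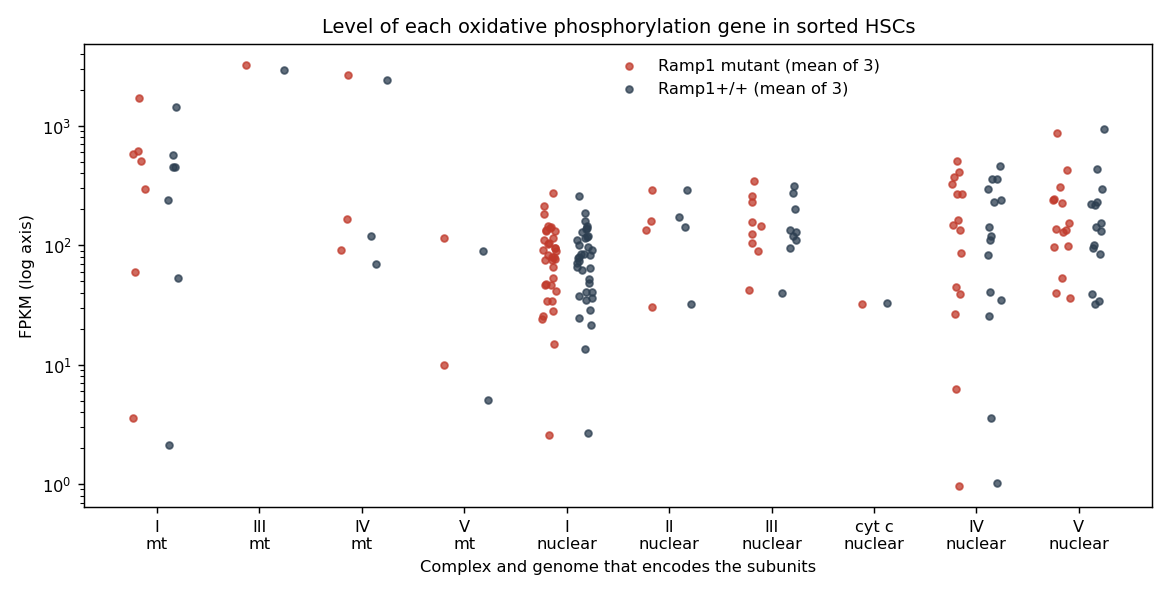
Mean FPKM of each of the 93 genes (log axis) in Ramp1 mutant (red, left in each pair) and Ramp1+/+ HSCs (blue, right), by complex and by the genome that encodes the subunit, each point being the mean of 3 libraries. The clouds of the genotypes lie at like heights in every column, and mt-Cytb is the highest point, at 3232 FPKM in mutant and 2920 FPKM in wild-type libraries.

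The subunits with tissue isoforms were present mainly as the widely expressed form. Cox4i1, which encodes the common form of subunit 4, was at 324 ± 10.5 FPKM in mutant and 299 ± 12.7 FPKM in wild-type libraries. Cox4i2, its lung-enriched isoform, was at 6.26 ± 2.24 FPKM in mutant and 3.56 ± 1.17 FPKM in wild-type libraries. Cox6b1 was at 407 ± 41.6 FPKM in mutant and 361 ± 33.0 FPKM in wild-type libraries, and Cox6b2, known from testis, at 26.4 ± 9.18 FPKM in mutant and 25.4 ± 5.75 FPKM in wild-type libraries. Cox7a2, the common form of subunit 7a, was at 134 ± 24.3 FPKM in mutant and 110.5 ± 16.3 FPKM in wild-type libraries, while the heart and muscle form Cox7a1 had 15, 5 and 5 reads in mutant libraries, against 8, 8 and 11 reads in wild-type libraries, and was too low to be tested. The muscle forms Cox6a2 and Cox8b and the testis form Cox7b2 lie outside the count table, and their highest value in any library was 0.790 FPKM, for Cox7b2 in wild-type replicate 3. Ndufa4l2 and Cox8c were listed at 0 in every library. The 3 genes for subunit c of the ATP synthase, whose mature proteins are identical, ranked Atp5g3, Atp5g2 and Atp5g1 by FPKM in both genotypes. They were at 276, 285 and 359 FPKM, 86.4, 94.0 and 107 FPKM and 28.8, 35.9 and 43.2 FPKM in mutant libraries, against 261, 339.7 and 281 FPKM, 88.4, 105 and 88.8 FPKM and 35.3, 37.3 and 29.5 FPKM in wild-type libraries. The FPKM ranges of neighbours in this order did not overlap. The place of Atp5g2 above Atp5g1 rests on the gene length that FPKM divides by, 753 against 4715 bases. By counted reads Atp5g1 was above Atp5g2, at 3098, 4525 and 5054 against 1483, 1893 and 2006 in mutant libraries. In wild-type libraries Atp5g1 had 4226, 4371 and 3248 reads, against 1687, 1973 and 1563.

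The question the genotype comparison addresses is which of these transcripts differ in HSCs of Ramp1 mutant mice. None of the 92 members tested passed an adjusted p of 0.05 in edgeR's quasi-likelihood test, in which 0.0208% of all 14443 genes did. Of all genes 0.00692% (1 gene) were higher in mutant HSCs and 0.0138% (2 genes) lower. DESeq2 also called 0 members, against 0.322% of 13037 genes, and 0 of 93 members passed in the authors' deposited table, against 0.231% of its 16021 genes, the lowest adjusted p of a member there being 0.27154 for Ndufa3. At an unadjusted p under 0.05, 8 members were higher in mutant HSCs and 0 lower, where 2.28% of all genes were higher and 1.7% lower. These 8 were Ndufa3, Atp5l, mt-Co3, mt-Co2, Uqcrh, mt-Atp6, mt-Nd6 and Atp5k. The count depended on single libraries, with 12 members higher without mutant replicate 1, beside 347 of all 14809 genes tested there. It was 5 without mutant replicate 2, beside 237 of 14787 genes, and 3 without wild-type replicate 1, beside 249 of 14863. Without both replicate 1 libraries it was 5, beside 215 of 14569 genes, and with limma on log2(FPKM + 1) it was 14, beside 491 of 14443. In each of these settings 0 members were lower, beside 156 to 358 of all genes. On the library-scaled counts of the test (CPM), 15 of 92 members had all mutant libraries above all wild-type libraries, against 5.87% of all genes, and 0 had all below, against 4.38%.

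The fold changes of the members were small and mostly above 0. Of the 92, 71 had a higher and 21 a lower fitted level in mutant HSCs, a share of 77.2% higher against 50.1% of all genes tested. Their median log2 fold change was 0.12, and that of all genes was 0.00. The 13 mitochondrially encoded genes had a median of 0.29 and the 79 nuclear genes tested a median of 0.09. The nuclear count leaned on single libraries: 58 of 79 were higher with every library, but 42 of 80 without mutant replicate 3 and 46 of 79 without wild-type replicate 3, where the medians were 0.01 and 0.02. Without wild-type replicate 2 the count was 69 of 80. Without both replicate 1 libraries, which held the most Y-linked reads, 59 of 79 nuclear and 13 of 13 mitochondrial members were higher.

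**Figure D2:**
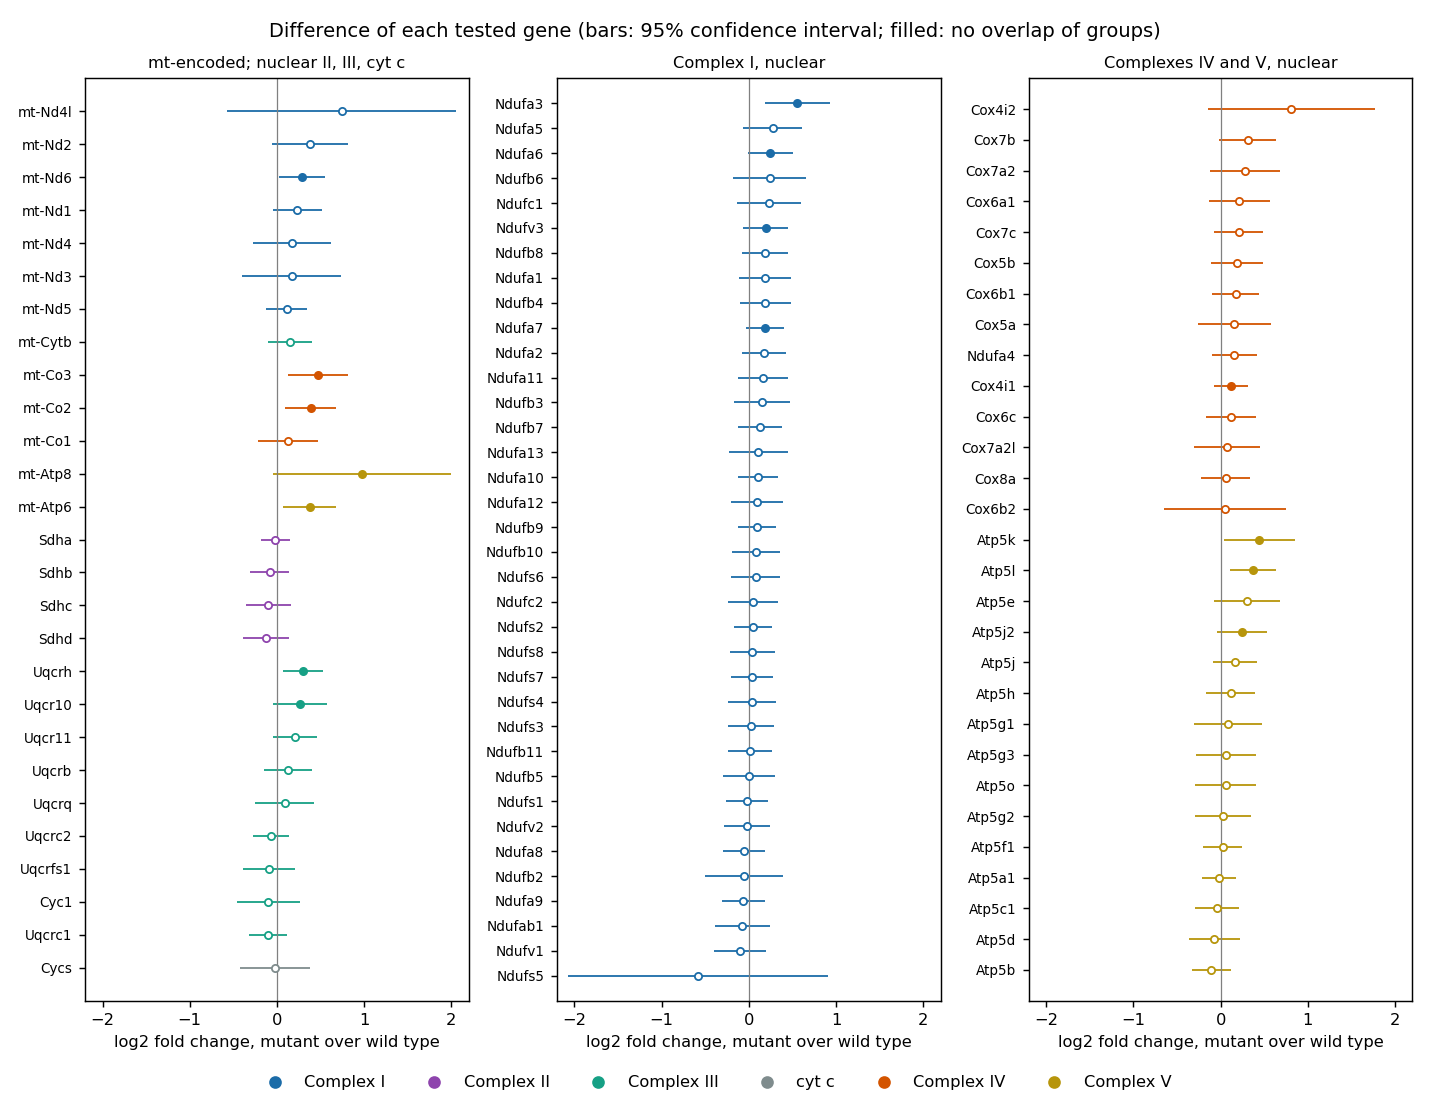
Log2 fold change of each tested gene (mutant over wild type) with its 95% confidence interval from the edgeR fit, by complex in colour, filled where the mutant libraries all exceeded the wild-type libraries in scaled CPM. Filled points all lie right of 0, the 4 complex II genes all lie left of it, and Ndufs5 has the widest interval of the nuclear genes.

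All 13 mitochondrially encoded genes had higher fitted levels in mutant HSCs, their log2 fold changes running from 0.11 to 0.97, and none passed the adjusted threshold. Together they took 1.09%, 1.42% and 1.18% of the counted reads in mutant libraries and 0.972%, 1.11% and 1.20% in wild-type libraries, so the groups overlapped. The means were 1.23 ± 0.174% in mutant and 1.10 ± 0.117% in wild-type HSCs (SD, n = 3 each), a difference of 0.133 percentage points that was 0.0352 without mutant replicate 2, the highest library. Without that library 11 of the 13 were higher, and their median log2 fold change was 0.18. An unadjusted p under 0.05 was reached by 4 of the 13 with every library, by 1 without mutant replicate 2 and by 0 without wild-type replicate 1. The nuclear members together took 1.26%, 1.27% and 1.44% of reads in mutant libraries and 1.29%, 1.37% and 1.22% in wild-type libraries.

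Among the complex IV core subunits, mt-Co3 was at 160.0, 198 and 140.2 FPKM in mutant libraries, against 109, 128 and 124 FPKM in wild-type libraries. No mutant library fell into the wild-type range (log2 fold change 0.47, SE 0.15; unadjusted p = 0.0139 in the edgeR fit). The copper-binding subunit mt-Co2 was at 95.1, 99.5 and 76.5 FPKM in mutant libraries, against 67.1, 68.6 and 72.0 FPKM in wild-type libraries (log2 fold change 0.39, SE 0.13), again with no overlap. The catalytic subunit mt-Co1, which carries the haem and copper site where oxygen is reduced, was far more abundant, at 2288, 3172 and 2521 FPKM in mutant libraries, against 2099, 2547 and 2681 FPKM in wild-type libraries. Its groups overlapped, with wild-type replicate 3 above mutant replicates 1 and 3 (log2 fold change 0.13, SE 0.15).

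The membrane subunit a of the ATP synthase, mt-Atp6, was at 111, 132 and 101 FPKM in mutant libraries, against 83.9, 89.9 and 92.4 FPKM in wild-type libraries and did not overlap between groups (log2 fold change 0.38, SE 0.13). mt-Atp8, whose reading frame runs into mt-Atp6 over the 43 bases printed above, drew only 54, 60 and 36 reads in mutant libraries, against 29, 29 and 18 in wild-type libraries. All mutant values were above all wild-type values, but the interval of its log2 fold change ran from -0.05 to 1.99. Cytochrome b, mt-Cytb, the only mitochondrially encoded subunit of complex III, was at 2919, 3566 and 3211 FPKM in mutant libraries, against 2605, 3007 and 3147 FPKM in wild-type libraries, with overlapping groups (log2 fold change 0.15, SE 0.11).

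The complex I genes of the mitochondrial genome encode the proton-pumping membrane arm. mt-Nd6, the only protein-coding gene on the other strand of the mitochondrial genome, was at 269, 336 and 278 FPKM in mutant libraries, against 240.2, 233 and 251 FPKM in wild-type libraries. All mutant values exceeded all wild-type values (log2 fold change 0.29, SE 0.11). mt-Nd1 was at 1504, 1976 and 1610.0 FPKM in mutant libraries, against 1351, 1446 and 1547 FPKM in wild-type libraries, with overlap (log2 fold change 0.23, SE 0.12). mt-Nd2, mt-Nd4, mt-Nd5 and mt-Nd3 also overlapped, with log2 fold changes of 0.38, 0.17, 0.11 and 0.17. mt-Nd4l drew 33, 31 and 14 reads in mutant libraries, against 11, 18 and 17 in wild-type libraries, too few to bound its log2 fold change more closely than from -0.57 to 2.05.

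Several of these genes have near-perfect nuclear copies. In the GENCODE transcripts of the same build, over 90% of the 50-base stretches of mt-Co2, mt-Co3, mt-Atp6, mt-Nd4l and mt-Nd3 also occurred in other genes, against 62.2% for mt-Nd4, 51.1% for mt-Co1 and under 10% for the other 6. The main copies form 1 block on chromosome 1, which carries stretches of mt-Co1, mt-Co2, mt-Atp6, mt-Co3, mt-Nd3, mt-Nd4l and mt-Nd4 between 24611535 and 24616197. mt-Atp8, which is among the 6 under 10%, lies between mt-Co2 and mt-Atp6, whose copies stand side by side in this block. Only annotated transcripts were searched, so a copy of mt-Atp8 outside them would have been missed. The copy of mt-Co3 (Gm28437 in GENCODE) matched it over 783 bases with 0 mismatches and had 3057, 4491 and 3031 reads in mutant libraries, against 2272, 2659 and 2565 in wild-type libraries. mt-Co3 itself had 2859, 4149 and 2728 reads in mutant libraries, against 2158, 2499 and 2268 in wild-type libraries, so gene and copy moved side by side from library to library. Which reads came from which locus was not tested. With the copies' reads added, mt-Co3 had a log2 fold change of 0.47, mt-Co2 of 0.49 and mt-Atp6 of 0.38, and no adjusted p passed. The 5 genes with over 90% shared had a median log2 fold change of 0.39 and the 6 with under 10% shared had a median of 0.26, all higher in mutant HSCs in both sets.

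The mean FPKM of the genes in these sets differed as well. Over all libraries the 5 shared genes ran from 2.84 to 143 FPKM, and the 6 with little sharing from 7.47 to 3076 FPKM. The 7.47 FPKM was that of mt-Atp8, and the next lowest of the 6 was mt-Nd6, at 268 FPKM. The part of sharing in these levels was not tested. A second block of diverged copies on chromosome 2, named after its values were seen, was higher in all mutant libraries than in all wild-type libraries. Gm13340, a copy of part of mt-Co1, had 687, 924 and 558 reads in mutant libraries, against 366, 365 and 330 in wild-type libraries (log2 fold change 1.01, SE 0.19; adjusted p = 0.591 in the edgeR fit). For Gm13341, a copy of part of mt-Co2, the log2 fold change was 0.82 (SE 0.20), and for Gm13339, a copy of part of mt-Nd2, it was 1.15 (SE 0.30).

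Nuclear complex I genes showed a slight lean, with 28 of 36 higher in mutant HSCs, 0 called and a log2 fold change of 0.09 at the median. The lean depended on single libraries: when mutant replicate 3 was left out, 20 of 36 were higher with a median of 0.02, when wild-type replicate 3 was, 21 of 36 with 0.04, and when wild-type replicate 2 was, 33 of 36 with 0.17. The 7 nuclear core subunits, which hold the flavin and iron-sulphur clusters of the electron path, had a median of 0.03, and 4 of the 7 were higher. The 29 accessory subunits had a median of 0.11, and 24 of the 29 were higher. Ndufa3, an accessory subunit (chromosome 7, 3617373 to 3620163), was at 86.3, 96.9 and 104 FPKM in mutant libraries, against 63.3, 76.9 and 54.7 FPKM in wild-type libraries. Its lowest mutant library was above its highest wild-type library, and its log2 fold change of 0.56 (SE 0.16) had the smallest unadjusted p of all members, 0.00829, with an adjusted p of 0.999.

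The accessory subunit Ndufa6 was at 127, 136 and 131 FPKM in mutant libraries, against 100.3, 116 and 117 FPKM in wild-type libraries, with no overlap (log2 fold change 0.25, SE 0.11). Ndufa7 was at 180.3, 183 and 184 FPKM in mutant libraries, against 166, 166 and 150.2 FPKM in wild-type libraries, also without overlap (log2 fold change 0.18, SE 0.09). Ndufv3, not picked by the naming rule, was the fourth nuclear complex I gene without overlap in scaled CPM, but its FPKM groups did overlap, with 41.8 in mutant replicate 2 and 42.5 in wild-type replicate 1. The most abundant nuclear complex I genes were Ndufb9, at 275 ± 20.7 FPKM in mutant and 258 ± 10.9 FPKM in wild-type libraries, and Ndufa1, an X-linked gene needed for assembly of the membrane arm, at 213 ± 17.8 FPKM in mutant and 187 ± 21.6 FPKM in wild-type libraries. Both overlapped in scaled CPM.

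Complex II, the only complex made wholly from nuclear genes and also an enzyme of the citric acid cycle, was the one complex with a median below 0. All 4 genes had lower fitted levels in mutant HSCs, the median log2 fold change being -0.09, with no group separated and 0 called. With 1 library left out that median ran from -0.15 without mutant replicate 3 to -0.03 without wild-type replicate 2. Sdha, the flavoprotein that oxidizes succinate, was at 285, 291 and 288 FPKM in mutant libraries, against 302, 281 and 293 FPKM in wild-type libraries (log2 fold change -0.02, SE 0.07). Its interval ran from -0.19 to 0.15, the narrowest of the members. The iron-sulphur subunit Sdhb was at 132, 125 and 148 FPKM in mutant libraries, against 145, 148 and 138 FPKM in wild-type libraries (log2 fold change -0.08, SE 0.10). The membrane anchors Sdhc and Sdhd were at log2 fold changes of -0.10 (SE 0.11) and -0.13 (SE 0.11). Without both replicate 1 libraries 1 of the 4, Sdha, was higher.

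In complex III the signs of the fold changes went with role, a description that was not tested. The core proteins Uqcrc1 and Uqcrc2 and the redox subunits Cyc1 and Uqcrfs1 had 0 of 4 higher and a median of -0.09 on the log2 scale, and the 5 small nuclear subunits had a median of 0.21, with 5 of 5 higher. Of the small subunits, Uqcrh, the acidic hinge protein that helps cytochrome c dock, was at 144, 146 and 148 FPKM in mutant libraries, against 118, 126 and 111 FPKM in wild-type libraries. The groups did not overlap (log2 fold change 0.30, SE 0.10; unadjusted p = 0.0169 in the edgeR fit). Uqcr10 was at 149, 141 and 176 FPKM in mutant libraries, against 138, 134 and 116 FPKM in wild-type libraries, also apart (log2 fold change 0.27, SE 0.13). Uqcr11 had 214, 237 and 242 FPKM in mutant libraries, against 202, 214 and 185 FPKM in wild-type libraries, and these overlapped at the edge (log2 fold change 0.21, SE 0.11).

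With every library the larger subunits sat on the other side of 0. Uqcrc1 was at 238, 250.3 and 282 FPKM in mutant libraries, against 271, 284 and 274 FPKM in wild-type libraries (log2 fold change -0.10, SE 0.10), and Cyc1, the haem subunit that hands electrons to cytochrome c, at 110.0, 115 and 150.3 FPKM in mutant libraries, against 125, 153 and 124 FPKM in wild-type libraries (log2 fold change -0.10, SE 0.16). In both genes mutant replicate 3 was the highest mutant library and lay inside the wild-type range. Cycs, the mobile carrier itself, was at 26.3, 30.4 and 39.6 FPKM in mutant libraries, against 31.3, 36.9 and 29.8 FPKM in wild-type libraries, with a log2 fold change of -0.02 (SE 0.17). The sign of Cycs changed without mutant replicate 1, where its log2 fold change was 0.12.

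All 14 nuclear complex IV genes tested were higher in fitted level, with a median log2 fold change of 0.17 and 0 called. The groups separated in 1 of the 14, where 5.87% of all genes had all mutant libraries above all wild-type libraries. Cox4i1, the largest nuclear subunit, was at 333, 313 and 327 FPKM in mutant libraries, against 304, 308 and 284 FPKM in wild-type libraries, the one gene whose groups did not overlap in scaled CPM (log2 fold change 0.12, SE 0.08). Cox7b was at 129, 154 and 158 FPKM in mutant libraries, against 129, 126 and 101 FPKM in wild-type libraries, where wild-type replicate 1 passed mutant replicate 1 (log2 fold change 0.31, SE 0.14). Cox4i2 had the highest log2 fold change of the 14, 0.81 (SE 0.41), from 115, 74 and 148 reads in mutant libraries and 49, 89 and 54 in wild-type libraries. Its groups overlapped and its interval ran from -0.15 to 1.77.

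Other subunits of complex IV, among them its most abundant nuclear ones, are given next. The log2 fold change of Cox6b1 was 0.17 (SE 0.12), that of Cox5b 0.18 (SE 0.13), that of Ndufa4 0.16 (SE 0.11) and that of Cox8a 0.06 (SE 0.12). Ndufa4 was at 464, 497 and 568 FPKM in mutant libraries, against 456, 489 and 429 FPKM in wild-type libraries. In Ndufa4, as in the median of the nuclear complex IV genes, mutant replicate 3 was highest and wild-type replicate 3 lowest. Without mutant replicate 3, 12 of 15 nuclear complex IV genes were higher and the median was 0.06.

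The ATP synthase genes are given by role too, again without a test between roles. The F1 head, which carries the catalytic sites, had 1 of 5 genes higher, the median on the log2 scale being -0.04. Atp5b was at 833, 809.6 and 958 FPKM in mutant libraries, against 939, 988 and 872 FPKM in wild-type libraries (log2 fold change -0.11, SE 0.10), and Atp5a1, the alpha subunit, stood at -0.02 (SE 0.08) on the log2 scale. The 4 genes of the peripheral stalk had a median of 0.08 and the 3 subunit c genes one of 0.06, with all 7 higher. Without mutant replicate 3, 6 of the 15 nuclear ATP synthase genes were higher, and without wild-type replicate 3, 8 of the 15, against 11 with every library. Without mutant replicate 1, and also without wild-type replicate 2, 14 of the 15 were higher, with medians of 0.17 and 0.14. At most 1 gene of the F1 head was then lower, so its place below 0 rested on those libraries.

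The 3 small membrane subunits e, f and g, of which e and g tie ATP synthase dimers together, had the highest levels relative to wild type among the nuclear roles of complex V, with a median of 0.37 and no overlap of groups in any of them. Atp5l, subunit g (chromosome 9, 44913250 to 44920742), was at 137, 127 and 123 FPKM in mutant libraries, against 106, 103 and 90.03 FPKM in wild-type libraries (log2 fold change 0.37, SE 0.11; unadjusted p = 0.0115 in the edgeR fit). Atp5k, subunit e (chromosome 5, 108433244 to 108434448), was at 49.7, 51.2 and 59.8 FPKM in mutant libraries, against 44.7, 41.9 and 31.5 FPKM in wild-type libraries (log2 fold change 0.45, SE 0.18). Atp5j2, subunit f, was at 95.2, 98.2 and 105 FPKM in mutant libraries, against 88.0, 91.4 and 72.9 FPKM in wild-type libraries (log2 fold change 0.24, SE 0.12). In Atp5k the lowest library was wild-type replicate 3, and the log2 fold change without it was 0.30.

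The libraries did not order alike for the 2 genomes. Taking each gene's log2 CPM minus its mean over the 6 libraries, the median of the mitochondrial genes was -0.07, 0.39 and 0.02 in mutant replicates 1 to 3 and -0.28, -0.10 and -0.03 in wild-type replicates 1 to 3. The median of the nuclear genes was -0.06, 0.00 and 0.18 in mutant replicates 1 to 3 and -0.05, 0.09 and -0.17 in wild-type replicates 1 to 3. Mutant replicate 2 was thus highest for the mitochondrial genes, and mutant replicate 3 highest and wild-type replicate 3 lowest for the nuclear genes. Over all genes tested this median was 0.01 in every library. The neutrophil genes were highest in mutant replicate 3 but second lowest in mutant replicate 1 and high in wild-type replicate 3, and erythroid genes were lowest in wild-type replicate 3. The part of these cells in the subunit levels was not tested.

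**Figure D3:**
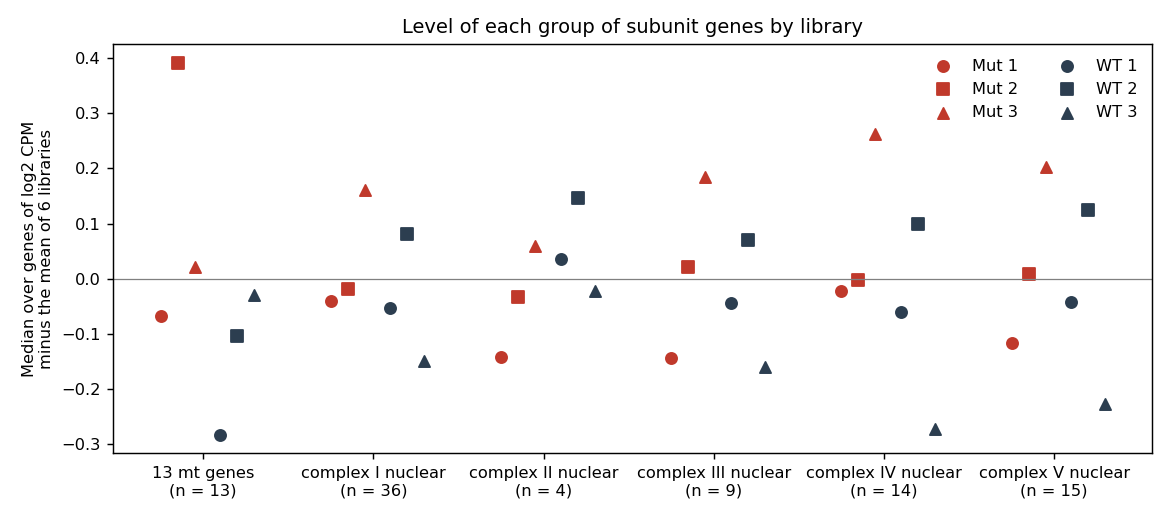
Median over the genes of each set of log2 CPM minus the gene's mean over 6 libraries, with mutant libraries in red and wild-type libraries in blue and replicates by symbol. Mutant replicate 2 stands highest for the 13 mitochondrial genes at 0.39, while in the nuclear sets of complexes I, III, IV and V mutant replicate 3 is highest and wild-type replicate 3 lowest.

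Within the nuclear members the log2 fold changes were lower in classes of longer coding sequence, by classes chosen after the values were seen. Of the 35 genes with a longest coding sequence of up to 400 bases, 32 were higher in mutant HSCs, and the median was 0.19 on the log2 scale. Of the 29 with over 400 and up to 800 bases, 23 were higher, with a median of 0.06, and of the 15 with over 800 bases, 3 were higher, with a median of -0.06. The short genes include Uqcrh, Atp5k, Atp5l and Ndufa3, and the long ones Sdha, Atp5b and Uqcrc1. Across the 79 nuclear genes Spearman's rho of coding length with the log2 fold change was -0.64, and across all 12659 protein-coding genes tested it was -0.07, as a description over genes that share the same 6 libraries.

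All protein-coding genes tested showed the same order of classes with a smaller spread. Of 605 short ones 68.3% were higher, with a median of 0.08, of 2191 in the middle class 55.8%, with a median of 0.02, and of 9863 long ones 46.2%, with a median of -0.02. Other genes were also taken within the FPKM range of the nuclear members, less its lowest part. Of these, 76.2% of 277 short ones were higher and 39.8% of 2360 long ones, with medians of 0.07 and -0.03. The short subunit genes were highest in mutant replicate 3, at 0.24, and lowest in wild-type replicate 3, at -0.26, by the median of log2 CPM minus each gene's mean. The 605 short genes of the table had 0.10 and -0.07 in the same libraries. Short coding length and role go together here, since complex II and the complex III core had 0 genes in the short class and the F1 head had 1, Atp5e, so the parts of length and role cannot be told apart. Without mutant replicate 3 the short class had 29 of 36 higher, with a median of 0.11, and the middle class had 11 of 29 higher, with a median of -0.06. Without wild-type replicate 3 the middle class had 13 of 29 higher. The long class had 8 of 15 higher without mutant replicate 1 and also without wild-type replicate 2, and its medians were then 0.00, so its place below 0 rested on those libraries.

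**Figure D4:**
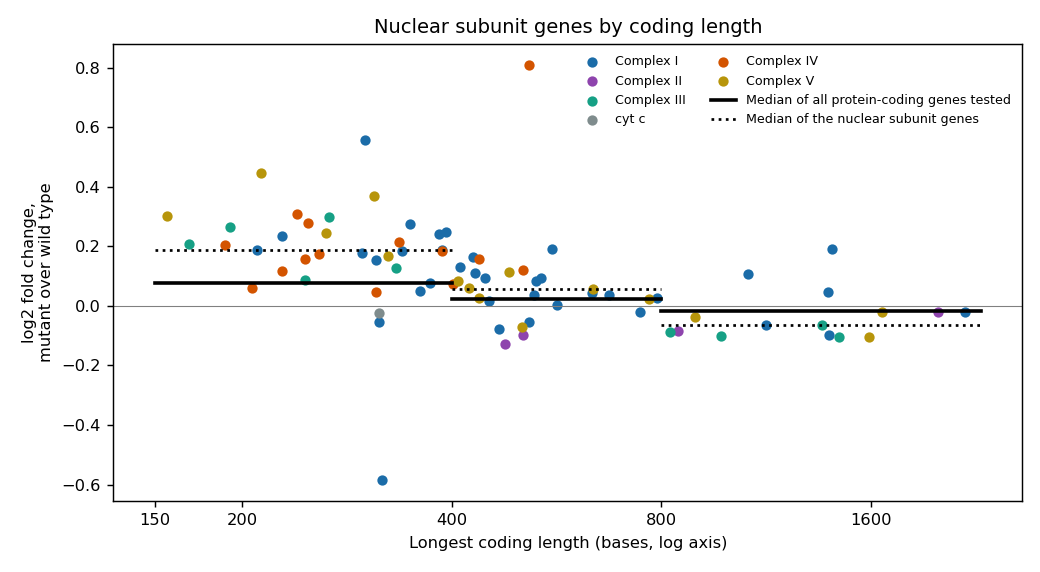
Log2 fold change (mutant over wild type) of each nuclear gene against its longest coding length in bases (log axis), coloured by complex, with the median of the nuclear subunit genes (dotted) and of all protein-coding genes tested (solid) in each length class. The dotted medians step down from 0.19 through 0.06 to -0.06 and the solid ones from 0.08 through 0.02 to -0.02.

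The widest spread of any nuclear member belonged to Ndufs5, an accessory subunit on the intermembrane-space side of complex I. It drew 649, 266 and 333 reads in mutant libraries, against 611, 1141 and 156 in wild-type libraries, a log2 fold change of -0.58 (SE 0.64). BC002163, a gene on chromosome 16 (42955631 to 42955949), matches its transcript over 319 bases with 2 mismatches (99.4%). It drew 481, 925 and 1170 reads in mutant libraries, against 615, 70 and 806 in wild-type libraries, high where Ndufs5 was low. The 60 bases around both mismatches, from GENCODE transcripts of GRCm38, show how little sets them apart, with the differing bases in capitals.
Ndufs5: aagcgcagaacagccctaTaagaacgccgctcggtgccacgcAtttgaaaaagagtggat
BC002163: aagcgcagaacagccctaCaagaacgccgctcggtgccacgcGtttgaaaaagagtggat
Summed over both loci the reads were 1130, 1191 and 1503 in mutant libraries, against 1226, 1211 and 962 in wild-type libraries, and the log2 fold change turned to 0.16 (SE 0.15).

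Other members also had reads split between gene and copy, chosen after their values were seen. Ndufa12, an accessory subunit of complex I, and its copy Gm15920 differ in 2 of 402 bases. Between 15.8% and 31.0% of their joint reads lay in the copy, and adding them lowered the standard error of the log2 fold change to 0.09 with the copy, against 0.13 without it. Cox7a2l, which joins complexes III and IV into supercomplexes, and its copy Gm6969 had 2 mismatches and 6 gap bases in their alignment. The copy held from 0.902% to 27.2% of the joint reads, and the standard error with it was 0.11, against 0.16 without it. In all, 25 members had such copies in the count table, sharing at least 5% of their 50-base stretches, and Ndufs5 was the 1 whose sign changed when the copies were added.

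**Figure D5:**
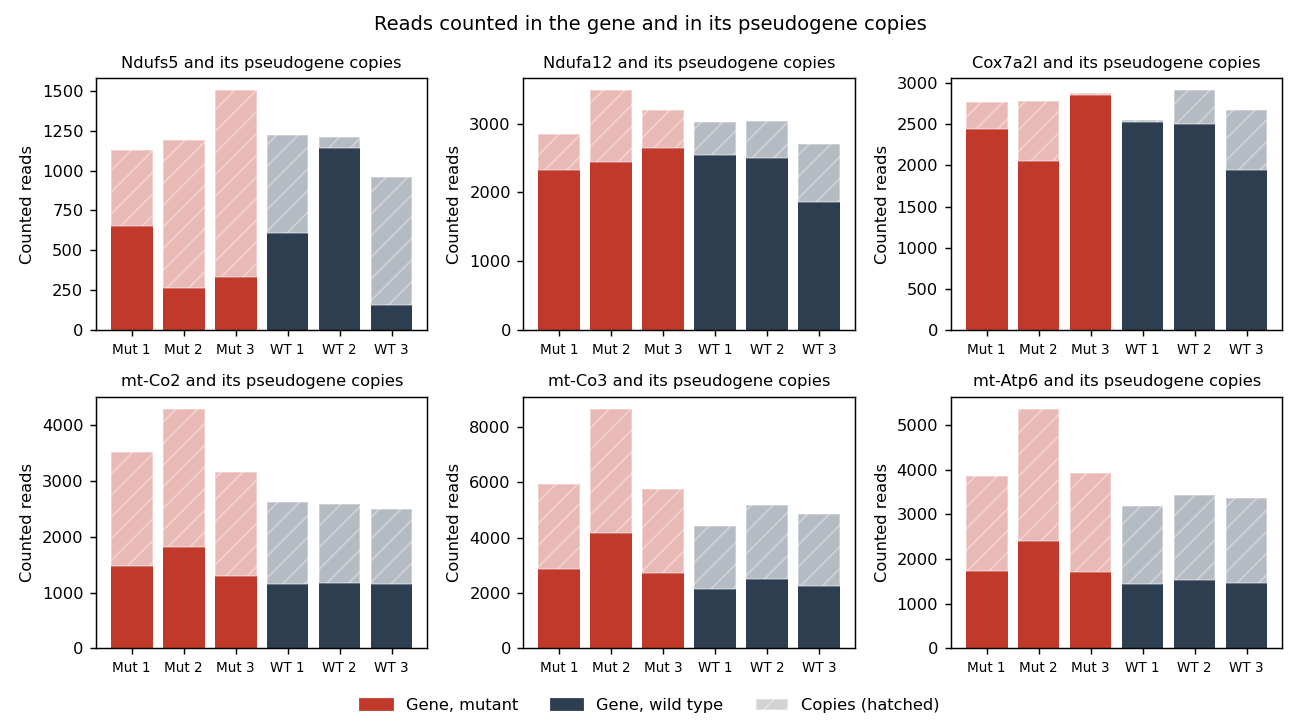
Reads counted in 6 members (solid) and in their pseudogene copies (hatched), stacked, in each mutant (red, left) and wild-type (blue, right) library. In Ndufs5 the solid and hatched parts trade places between libraries while the total stays between 962 and 1503 reads, and in the mitochondrial genes the copies hold about the same part of every bar.

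Few members lie near Ramp1 itself or near Pebp1, a Raf kinase inhibitor gene on chromosome 5 picked as a second position from earlier results of these data. Ndufa10, an accessory complex I subunit, starts 1.26 Mb from Ramp1 on chromosome 1, and was at 78.4, 82.9 and 89.3 FPKM in mutant libraries, against 76.6, 82.1 and 74.4 FPKM in wild-type libraries (log2 fold change 0.11, SE 0.10), with overlap. Cox6a1 lies 1.94 Mb from Pebp1 on chromosome 5 (log2 fold change 0.22, SE 0.15) and Atp5k 8.85 Mb from it. No other member starts within 10 Mb of either gene.

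Among genes that build, feed or regulate the chain, none passed the adjusted threshold in edgeR, and the medians of 6 lists lay between -0.06 and -0.01. Of 44 assembly factors 21 were higher and 23 lower in mutant HSCs, the median being -0.02. Of 28 genes that maintain and express mitochondrial DNA 13 were higher and 15 lower, with a median of -0.01. Tfam, the DNA-packaging transcription factor of mitochondria, was at 23.8, 28.1 and 26.8 FPKM in mutant libraries, against 24.1, 27.9 and 27.0 FPKM in wild-type libraries. The lowest unadjusted p in these lists was that of Slirp, an RNA-binding partner of Lrpprc that stabilizes mitochondrial transcripts. Slirp was at 5.20, 5.33 and 6.39 FPKM in mutant libraries, against 3.39, 3.79 and 2.99 FPKM in wild-type libraries, with no overlap (log2 fold change 0.73, SE 0.20; unadjusted p = 0.00736 and adjusted p = 0.999 in the edgeR fit).

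Of 14 regulators of mitochondrial biogenesis 4 were higher and 10 lower, with a median of -0.06. Among them Sirt1, a deacetylase, was at 10.6, 6.05 and 4.13 FPKM in mutant libraries, against 11.96, 12.7 and 11.5 FPKM in wild-type libraries, without overlap (log2 fold change -0.81, SE 0.29; unadjusted p = 0.0260 in the edgeR fit). Of 17 citric acid cycle genes 7 were higher and 10 lower, with a median of -0.01. Of 8 carriers and ATP exporters 3 were higher and 5 lower, and Ucp2, an inner membrane carrier, was at 113, 115 and 131 FPKM in mutant libraries, against 134, 136 and 153 FPKM in wild-type libraries (log2 fold change -0.23, SE 0.10). Of 17 genes for coenzyme Q, haem attachment and electron entry 6 were higher and 11 lower, with a median of -0.03. Among the assembly factors the smallest unadjusted p belonged to Uqcc2, which acts in complex III assembly, at 66.6, 62.6 and 69.1 FPKM in mutant libraries, against 59.8, 56.0 and 44.4 FPKM in wild-type libraries (log2 fold change 0.31, SE 0.14).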

How the data were processed

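RNA from sorted HSCs was sequenced in 6 libraries. CASAVA, STAR, HTSeq 0.6.1, DESeq2 and the build mm10 are listed in the submitters' processing notes without role or order; annotation release and strand setting are not given in the sources used here, so overlapping genes and copies may share reads. The authors deposited raw read counts per gene, a signal column of counts divided by size factors (left unused), FPKM by gene length and counted reads, log2 fold changes and p-values.

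From the deposited counts, edgeR 4.0.16 (R 4.3.3) with TMM scaling, filterByExpr and the two-sided quasi-likelihood F test was fitted to all genes, mutant minus wild type, with Benjamini-Hochberg adjustment over 14443 genes and a threshold of 0.05. The SE is the log2 fold change over the square root of F, and 95% intervals use the t distribution of that fit. DESeq2 1.42.0 and limma 3.58.1 on log2(FPKM + 1) or log2(FPKM + 0.1) were alternatives. The test was checked on simulated counts.

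Copies share at least 5% of a member's 50-base stretches in GENCODE transcripts of the same build; coding length is the longest coding sequence there. The members and lists were chosen with earlier results of these data known. Named members were all mitochondrially encoded genes, the 3 most abundant and the 3 of smallest p in each nuclear complex, tissue isoforms, members within 10 Mb of Ramp1 or Pebp1, and the 5 highest and 5 lowest fold changes; others were named after their values were seen. Atp5s and Atp5sl are not subunits of the list and were left out. Counts of every pair of libraries differed by more than sampling noise.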

Additional observations from a re-analysis of the deposited data

How the results depend on the processing

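Members called stayed at 0 in every setting run. These were RLE scaling, library totals, scaling without the mitochondrial genes, no low-count filter, DESeq2, limma, each library left out and the replicate block. Chosen after seeing the data were 2 more, without both replicate 1 libraries and with pseudogene copies added. Over all genes, the higher calls numbered 1 and the lower calls 2. Higher calls were 2 without a low-count filter and in both limma fits and 20 with DESeq2, and ran from 1 to 2 with 1 library left out. Lower calls were 22 with DESeq2 and 1 each in limma on log2(FPKM + 0.1), with the replicate block and without both replicate 1 libraries. They ran from 1 to 4 with 1 library left out. Libraries of the same number had deviations correlated at 0.138, 0.00181 and -0.0940, and those of unlike number from -0.133 to 0.146. Both replicate 1 libraries held the most Y-linked reads. With so few libraries, whether the numbers pair them cannot be told. The replicate block changed no member's call. With 1 library left out, signs turned in 14 named members, whose log2 fold changes ran from -0.063 to 0.043 in Atp5a1, -0.083 to 0.23 in Atp5g1, -0.074 to 0.14 in Atp5g2, -0.081 to 0.20 in Atp5g3, -0.18 to 0.29 in Cox6b2, -0.058 to 0.23 in Cox7a2l, -0.046 to 0.15 in Cox8a, -0.27 to 0.030 in Cyc1, -0.22 to 0.12 in Cycs, -0.032 to 0.0063 in Sdha, -0.025 to 0.24 in mt-Co1, -0.0033 to 0.35 in mt-Nd3, -0.0093 to 0.33 in mt-Nd4 and -1.12 to 0.17 in Ndufs5. Without both replicate 1 libraries, Cox6b2 had -0.11, Cycs 0.078 and Sdha 0.023. With copies added Ndufs5 had 0.16; its reads and those of BC002163 are then summed. The cause of the other turns was not tested. The medians of the complexes ran, with 1 library left out, from -0.03 to 0.20 in nuclear complex III and from -0.06 to 0.17 in nuclear complex V; those of nuclear complexes I and IV, complex II and the mitochondrial genes kept their sign in every setting run. With 3 libraries a group, the median SE of a member was 0.12, and mt-Atp8 and mt-Nd4l, with 60 reads or fewer in each library, are bounded least closely of the mitochondrial genes.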
